A study of Rattus norvegicus with 12 samples.

Results

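The comparison described here set dorsal root ganglia of Low Pain (LP) rats after spinal nerve ligation (SNL) against ganglia of LP rats after a sham operation. Its members were chosen by the sample titles, and they are 6 of the 12 arrays of the series, 3 SNL and 3 sham. The LP animals were adult male Sprague Dawley rats of 180 to 300 g from the genetic sub-line labelled Low Pain, and the other 6 arrays came from the High Pain (HP) sub-line of the same sex, stage and weight, with the same operations. In the SNL group the L4 and L5 spinal nerves had been tied and the L4/L5 ganglia were taken 3 days later, whereas the sham operation left the nerve undamaged and its interval is not given in the labels. No transgene, deletion or drug is named for any group. The labels do not say whether an array holds the ganglia of 1 animal or of a pool, so the p-values reflect nothing beyond the spread among these arrays, which may be technical.

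A dorsal root ganglion holds the cell bodies of the sensory neurons that serve touch, temperature, pain and the sense of limb position, each wrapped in satellite glia and set among Schwann cells, vessels, fibroblasts and resident macrophages. Tying a spinal nerve cuts the axons of those neurons. Axotomised sensory neurons are known to switch on a set of injury transcription factors and growth genes and to reduce many of the channels, receptors and transmitters that define them, while macrophages gather and glia are activated in the ganglion.

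Each value is the array's signal for 1 probe set, on a linear scale, and the deposited values have the same trimmed mean on every array. Differences are of log2(signal + 1), SNL minus sham, so that 1 unit is a 2-fold change, and they understate the change of dim genes. A gene is said to have risen or fallen where limma's moderated test, fitted to all 12 arrays, gave an adjusted p under 0.05 over 10411 genes. The median signals of the LP arrays lay between 290.9 and 313.2. Within the LP groups the arrays correlated with r between 0.941 and 0.965 over 6 pairs, and across SNL and sham between 0.923 and 0.944 over 9 pairs, all on log2 values across probe sets. The ratio of the 3' to the 5' actin probe set, a sign of RNA integrity, was 1.877 on LP sham replicate 1, 1.154 and 0.993 on the other sham arrays, and 1.113 to 1.125 on the SNL arrays. Neurofilament light chain (Nefl) and peripherin (Prph), which define sensory neurons, were among the brightest genes, with lowest signals of 6731.6 and 5664.3 on the LP arrays. In LP rats no member of the skeletal muscle list (31 measured) or the red blood cell list (7 measured) rose or fell. In HP rats 2 skeletal muscle genes rose and 5 fell, and 1 red blood cell gene rose.

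In LP rats 797 of 10411 genes rose after ligation (7.66%) and 707 fell (6.79%), together 14.4%. These shares are the background for each list count below. At least a 2-fold change was reached by 220 of the risers and 137 of the fallers. The median difference over all genes was 0.02. All 3 SNL arrays lay above all 3 sham arrays for 16.5% of genes and below them for 14.7%. Of the called genes, 1502 of 1504 had groups that did not overlap. Precision went with brightness: replicates of the dimmest 25% of genes had a median SD of 0.464 on the log2 scale against 0.135 for the brightest 25%, and 137 of the former and 665 of the latter were called. Among 3083 probe sets without a single gene symbol, 303 passed (9.83%) when tested with every other probe set.

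**Figure D1:**
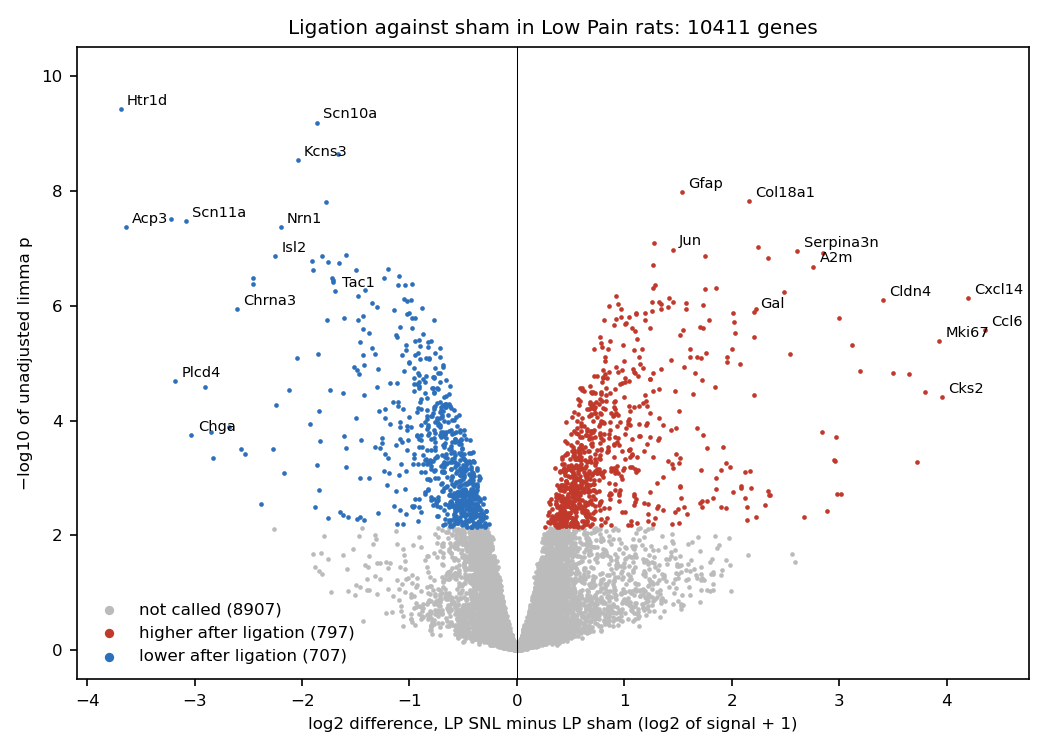
Each of the 10411 genes in LP rats, with the log2 difference (SNL minus sham, n = 3 arrays each) on the horizontal axis and −log10 of limma's unadjusted p on the vertical axis. The 797 genes called higher are red, the 707 called lower are blue, and Htr1d at -3.69 and Ccl6 at 4.36 mark the edges on either side.

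The transcription factors that mark axon injury rose. Atf3, a stress-induced factor used as the standard label of axotomised sensory neurons, read 224.3, 326.5 and 251.0 on the sham arrays and 1956.9, 2060.8 and 1734.9 on the SNL arrays. The groups lay far apart, and the difference was 2.85 ± 0.22 (SE, adjusted p = 7.2e-05). Jun, the AP-1 subunit needed for axon regrowth, had signals of 974.0, 1119.9 and 875.3 after sham and 2518.1, 2594.2 and 2976.9 after SNL (1.45 ± 0.11, adjusted p = 7.2e-05). Smad1, which carries BMP signals into the nucleus, rose by 0.97 ± 0.09 (a second probe set gave 0.58). Csrp3 and Ankrd1, better known as muscle stress proteins, rose by 2.23 ± 0.22 and 1.79 ± 0.18, and a second probe set of Ankrd1 gave 4.94 ± 0.26. Xbp1, the factor of the unfolded protein response, rose by 0.45 ± 0.09. Of the 35 measured members of the injury factor list, 15 rose and 1 fell, and the list's median was 0.62. The faller was Klf5, a Krüppel-like factor, at -0.53 ± 0.12, and its call was lost without LP SNL replicate 1 (adjusted p = 0.0533). The immediate early gene Fos read 400.6, 1298.3 and 515.6 after sham and 989.7, 1211.6 and 2191.7 after SNL, so the groups overlapped (adjusted p = 0.223).

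Genes of axon growth moved the same way, with 21 of 40 measured members higher, none lower, and a median of 0.54. Sprr1a, a small proline-rich protein that promotes axon outgrowth, read 261.4, 259.1 and 263.3 on the sham arrays and 759.3, 770.8 and 808.8 on the SNL arrays. The groups were separate, and the difference was 1.57 ± 0.15 (adjusted p = 0.00017). Gap43, the growth cone protein, was already bright after sham at 3114.7, 3474.3 and 2696.3 and reached 6455.1, 4846.6 and 6512.0 after SNL (0.93 ± 0.15), while a second, noisier probe set gave 0.17 ± 0.91. Gadd45a, a stress gene with a role in DNA demethylation and repair, rose from 547.7, 421.8 and 322.5 to 2440.9, 1952.6 and 2052.7 (2.34 ± 0.18). Tubb6, a tubulin, rose by 1.73 ± 0.18 and Stmn4, a stathmin that binds tubulin, by 1.51 ± 0.23. Arg1, the arginase that feeds polyamine synthesis, rose by 1.84 ± 0.25. Shh, the hedgehog ligand, lay between 18.6 and 24.9 after sham, near the 5th percentile of the arrays (12.4 to 20.8), and between 162.0 and 257.0 after SNL (3.12 ± 0.35).

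The promoter of Sprr1a holds AP-1 motifs close to its start. It is shown because Jun rose and Sprr1a was among the growth genes with the smallest p. The run covers the 150 bases before the gene's start in RefSeq's rat assembly GRCr8 (chr2:180752626-180752775, minus strand, 5′ to 3′), with the matches to TGANTCA in capitals.
Sprr1a: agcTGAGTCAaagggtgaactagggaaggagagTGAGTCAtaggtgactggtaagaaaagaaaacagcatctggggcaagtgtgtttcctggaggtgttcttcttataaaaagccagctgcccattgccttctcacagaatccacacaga
The matches start at positions -147 and -117 from the gene start. TGANTCA reads the same on both strands and was searched from 250 bases before to 50 after each start. It was found in 2 of the 15 risers of the growth list that had a promoter sequence (13.3%), in 2 of the 14 members not called (14.3%), and in 2012 of 27457 promoters of that length (7.33%). None of the 9 injury factors that rose and had a promoter sequence held it. These shares are descriptions of letters in a window, with no test.

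Neuropeptides split in both directions: 7 of 29 measured precursors rose and 7 fell. Galanin (Gal), a peptide that rises in injured sensory neurons, read 1014.3, 1126.7 and 693.9 after sham and 4248.5, 4792.5 and 3830.6 after SNL. The groups were separate, with a difference of 2.21 ± 0.22 (adjusted p = 0.000182). Neuropeptide Y (Npy) had signals of 1403.1, 2707.2 and 1332.4 after sham, the second replicate standing above the others, and 4767.0, 4616.4 and 4489.0 after SNL (1.43 ± 0.24). Vip, vasoactive intestinal peptide, rose from 279.5 to 321.2 up to 877.6 to 1191.2 (1.76 ± 0.21). Adcyap1, which encodes the related peptide PACAP, rose from 618.5 to 1021.6 up to 2322.3 to 2764.2 (1.71 ± 0.21). Vgf, a growth factor-induced granule peptide, rose by 1.34 ± 0.17.

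The fallers included the peptide transmitters by which nociceptors are commonly identified. Substance P's precursor Tac1 read 1778.3, 2449.8 and 2423.7 after sham and 768.7, 633.6 and 642.7 after SNL. Every SNL array lay below every sham array, and the difference was -1.69 ± 0.15 (adjusted p = 0.00013). Calca, the gene of calcitonin gene-related peptide, was among the brightest peptides at 5572.3, 6116.2 and 5569.2 after sham and 3829.6, 3357.7 and 3332.7 after SNL (-0.72 ± 0.09), and its other probe sets gave -1.07 and -0.25. Its paralogue Calcb fell further, by 1.46 ± 0.16 on the log2 scale. Nppb, a peptide of itch-sensing neurons, read 395.2, 334.4 and 468.8 after sham and 152.5, 25.6 and 41.4 after SNL, with SNL replicate 1 well above the other SNL arrays (-2.83 ± 0.55). Somatostatin (Sst), of the same neurons, fell from 710.3 to 782.4 down to 313.1 to 337.7 (-1.19 ± 0.25). Scg2, a secretogranin of dense-core granules, fell from 1856.7, 1975.3 and 2050.5 to 545.8, 470.4 and 560.4 (-1.90 ± 0.16). Brain-derived neurotrophic factor (Bdnf), kept in this list as a peptide transmitter, read 184.2, 343.4 and 318.7 after sham and 441.0, 389.8 and 315.1 after SNL, and the groups overlapped (adjusted p = 0.215).

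**Figure D2:**
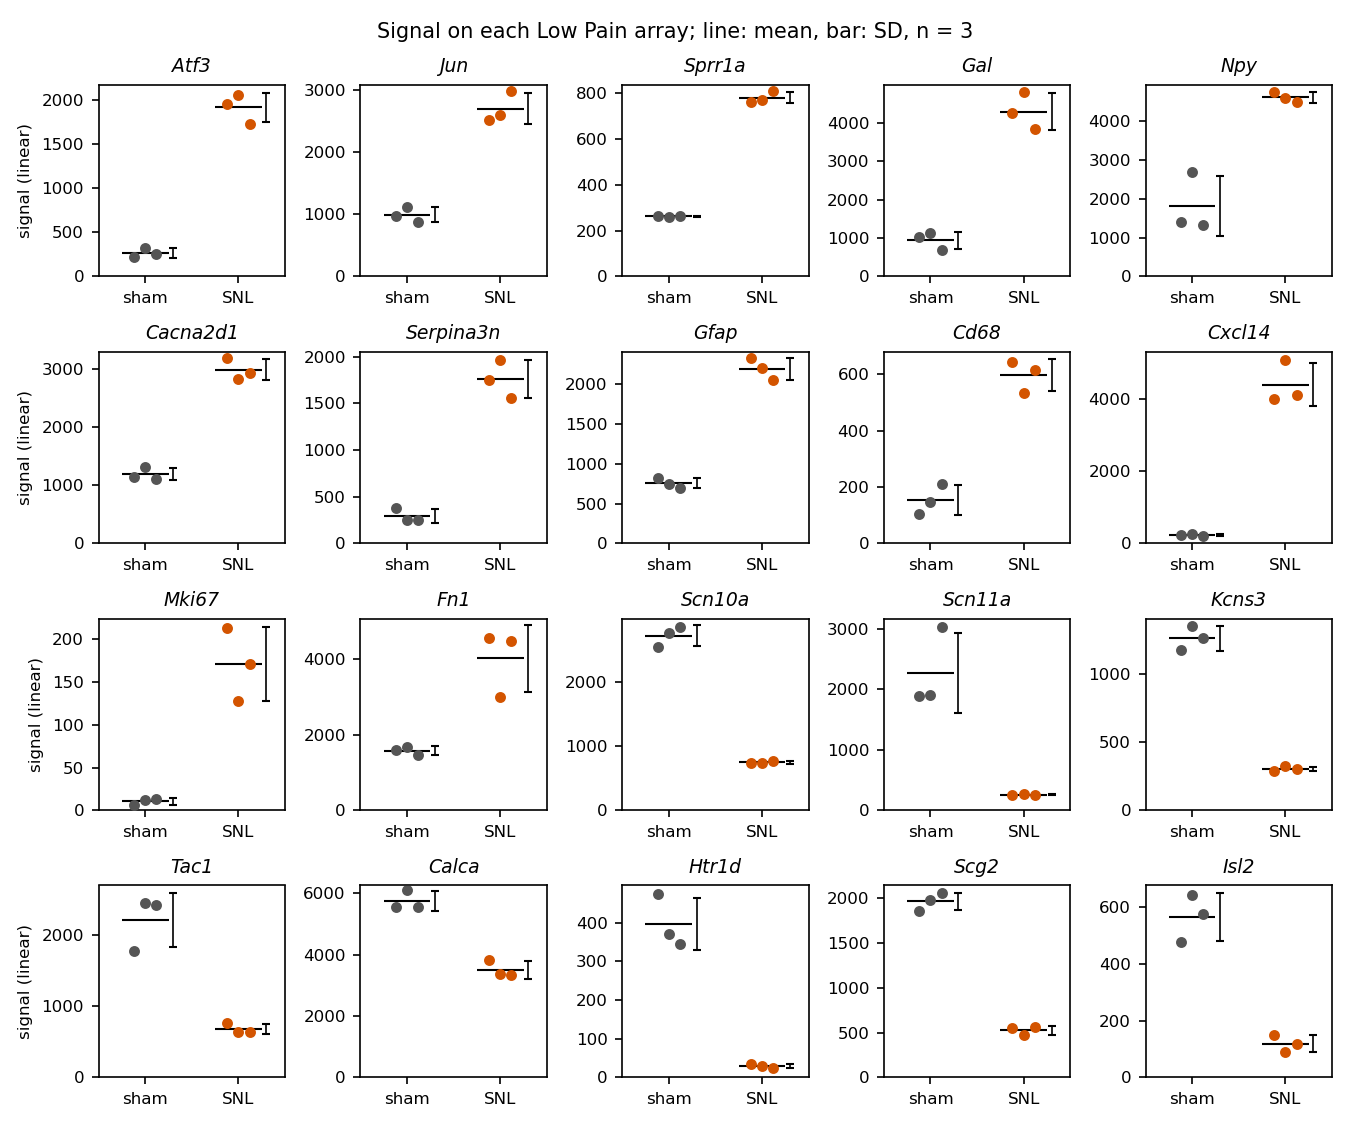
Signal of 20 named genes on each of the 6 LP arrays, on linear axes that start at 0, with the mean as a line and the SD as a bar (n = 3 per group). The sham and SNL arrays of every gene drawn were separate, among them Npy with its higher sham array at 2707.2 and Scn11a with 1 sham array at 3029.9.

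Among sodium channel genes the nociceptor channels showed the largest falls. Scn10a encodes Nav1.8, the tetrodotoxin-resistant channel that carries most of the action potential in nociceptors. Its signals were 2530.5, 2754.4 and 2847.3 after sham and 733.1, 740.2 and 769.6 after SNL, and the groups lay far apart. For Scn10a the difference was -1.86 ± 0.08, and it shared the smallest adjusted p of the comparison with Htr1d (3.4e-06). Scn11a, the gene of Nav1.9, read 1887.4, 1898.7 and 3029.9 after sham, with replicate 3 above the others, and 253.4, 268.9 and 259.6 after SNL (-3.08 ± 0.21). Scn1a fell by 1.72 ± 0.15 and Scn9a, the gene of Nav1.7, by 0.82 ± 0.14 on the log2 scale. The beta subunit gene Scn4b fell by 0.44 ± 0.09. In all 5 of 12 measured sodium channel genes fell and 1 rose. The riser was Scn3a, the gene of the embryonic channel Nav1.3, which is known to return in injured sensory neurons: it read 54.6, 134.9 and 52.0 after sham and 203.5, 282.3 and 310.7 after SNL (1.83 ± 0.45, adjusted p = 0.0217). Its call was lost without LP SNL replicate 2 (adjusted p = 0.0628), LP SNL replicate 3 (0.0771), LP sham replicate 1 (0.074) or LP sham replicate 3 (0.0688).

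Of the potassium channel genes, which set resting potential and repolarise the membrane, 18 of 64 measured fell, none rose (1 without LP sham replicate 1 or LP sham replicate 2), and the median was -0.25. Kcns3, a silent subunit that modifies Kv2 channels, read 1173.7, 1355.1 and 1262.7 after sham and 291.0, 322.5 and 306.0 after SNL (-2.04 ± 0.11, adjusted p = 7.64e-06). The A-type current family fell in several parts. Kcnd1 dropped by 0.91 ± 0.13 and Kcnd3 by 1.61 ± 0.16, both pore subunits of the Kv4 group. The Kv4 partners Kcnip2 and Kcnip3 dropped by 1.35 ± 0.13 and 1.28 ± 0.20, though 1 further probe set of Kcnip2 gave -0.03 and 1 of Kcnd3 gave -0.18. Kcna1 and Kcna2, the juxtaparanodal Kv1 subunits, gave differences of -0.10 ± 0.18 and -0.03 ± 0.20 that did not pass.

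Calcium channel genes went both ways, 3 rising and 4 falling of 18 measured, beside 7.66% and 6.79% over all genes. Cacna2d1, the alpha2delta-1 subunit bound by gabapentin, read 1150.8, 1324.5 and 1117.4 after sham and 3203.1, 2841.8 and 2941.8 after SNL. Its groups were separate by a wide margin (1.32 ± 0.12, adjusted p = 0.00016). Its relative Cacna2d3 went the other way, from 814.2, 673.7 and 632.2 down to 365.3, 303.6 and 307.9 (-1.11 ± 0.17). Cacna1c, an L-type pore subunit, rose by 0.57 ± 0.08, and a second probe set gave 0.45 ± 0.30, not called. Its call was lost with the mean of its probe sets (limma adjusted p = 0.0666). Cacng2, a gamma subunit better known for guiding AMPA receptors, fell by 0.91 ± 0.12 on the log2 scale. The remaining riser, Cacna1g, lost its call without any single LP array. Cacnb3, a faller, was lost without LP SNL replicate 2 or LP sham replicate 1 or 2. Cacna1b, also a faller, was lost without LP SNL replicate 1 or 3 or LP sham replicate 3.

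Among 26 transient receptor potential, acid-sensing, HCN, Piezo and P2X channel genes 1 rose and 5 fell. Over all genes 7.66% rose and 6.79% fell. The heat and capsaicin receptor Trpv1 read 327.0, 312.3 and 322.7 after sham and 121.0, 117.4 and 117.2 after SNL (-1.43 ± 0.17). Its other probe sets gave -3.69 ± 0.46 and -0.00 ± 0.22, so the size depended on the probe set. Asic1, an acid-sensing channel, fell from 1267.7 to 1313.6 down to 530.5 to 634.2 (-1.14 ± 0.11), while its other probe sets gave -0.25 ± 0.21 and -0.81 ± 0.33, neither called. Piezo1, a mechanically gated channel found also in vessels, was the riser at 1.07 ± 0.11. P2rx3, the ATP receptor of non-peptidergic nociceptors, lay between 1843.3 and 2024.5 after sham and between 1548.0 and 1862.7 after SNL and did not pass (adjusted p = 0.422). The count of fallers dropped from 5 to 3 without any single LP array, the smaller changes of Asic3, P2rx6 and Trpm3 being those with an adjusted p above 0.01.

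**Figure D3:**
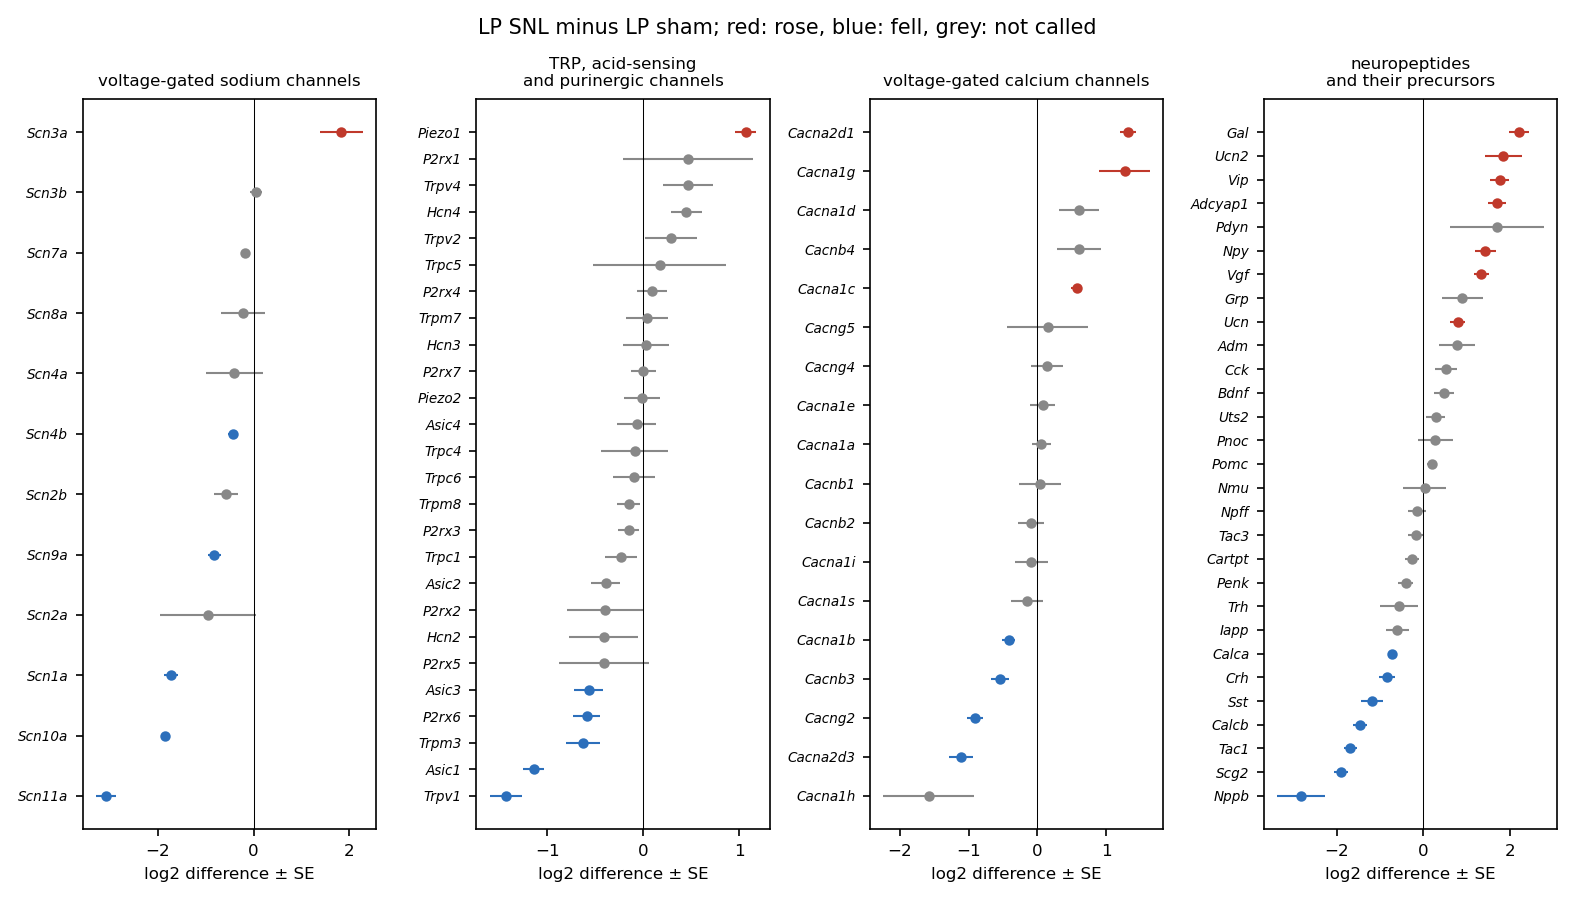
Log2 difference (LP SNL minus LP sham) with its SE for every measured gene of the sodium, sensory (transient receptor potential, acid-sensing and purinergic), calcium and neuropeptide lists, in red where the gene rose, blue where it fell and grey where it was not called. Scn11a at -3.08 and Nppb at -2.83 lie farthest to the left, and Gal at 2.21 farthest to the right.

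Receptors for transmitters mostly did not pass, and those that did were mainly lower. Of 63 opioid, cannabinoid, serotonin and peptide receptors 2 rose and 7 fell, and the median was -0.04. Over all genes 7.66% rose and 6.79% fell. Htr1d, the serotonin receptor that triptans act on, read 473.8, 370.5 and 345.2 after sham and 33.7, 30.8 and 24.5 after SNL. The difference of -3.69 ± 0.16 was the largest decrease of any gene called. The subunits of the serotonin-gated ion channel fell together: Htr3a went from 906.6 to 1044.7 down to 284.2 to 424.1 (-1.43 ± 0.15) and Htr3b from 1017.4 to 1242.7 down to 433.8 to 512.3 (-1.23 ± 0.19, with -2.24 on a second probe set). Ramp1, the partner protein of the receptor for calcitonin gene-related peptide, rose by 0.83 ± 0.11. The mu opioid receptor Oprm1 read 267.6, 167.8 and 247.4 after sham and 229.6, 185.7 and 176.3 after SNL, with overlapping groups (adjusted p = 0.675).

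In the list of GABA, glutamate, glycine and acetylcholine receptors 2 of 49 rose and 9 fell, beside 7.66% and 6.79% over all genes. Gabbr2, the GABA-B subunit that couples to G proteins, read 1848.7, 2041.5 and 1700.5 after sham and 782.1, 860.8 and 717.0 after SNL (-1.24 ± 0.11), and a second probe set gave -0.67. Chrna3, a nicotinic subunit, fell from 372.7 to 532.8 down to 47.5 to 99.2 (-2.61 ± 0.25), and Grik1, a kainate receptor, from 605.3 to 712.1 down to 38.6 to 168.7 (-2.68 ± 0.45). Gabra5, a GABA-A subunit, rose from 147.1 to 158.1 up to 268.1 to 366.7 (1.02 ± 0.17). Without LP SNL replicate 2 or 3 or LP sham replicate 1 or 3 only 1 member rose.

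Of the synaptic vesicle and granule genes 19 of 46 fell, 2 rose, and the median was -0.46. Rab3a, a small GTPase of vesicle docking, read 2100.2, 2232.4 and 2157.8 after sham and 1039.0, 1009.6 and 986.6 after SNL (-1.10 ± 0.09, adjusted p = 0.000106). Caskin1, a scaffold that binds CASK at the synapse, fell from 101.8, 142.1 and 166.9 to 13.7, 14.8 and 12.1, below the 5th percentile of those arrays (-3.22 ± 0.21). Chga, the granule protein chromogranin A, read 579.0, 509.8 and 567.2 after sham and 108.8, 24.7 and 108.5 after SNL, with SNL replicate 2 the lowest (-3.03 ± 0.53). The risers were Vgf, given above, and Syt4, a synaptotagmin, at 0.55 ± 0.09.

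In the list of G protein and phospholipase signalling 12 of 53 genes fell and 4 rose, beside 6.79% and 7.66% over all genes. The risers included Rgs5, which stands in the pericyte list as well. Rgs4, a brake on G protein signals, was among the brightest, at 4984.0, 4949.9 and 5212.4 after sham and 1766.2, 1378.7 and 1514.3 after SNL (-1.71 ± 0.15). The diacylglycerol kinases Dgkh and Dgkz fell by 1.66 ± 0.13 and 1.77 ± 0.18 on the log2 scale. Plcd4, a phospholipase C, read 167.5, 249.5 and 69.6 after sham and 11.2, 18.7 and 15.8 after SNL (-3.18 ± 0.42). Rgs2 and Rgs16, of the same family as Rgs4, rose by 0.79 ± 0.09 and 0.85 ± 0.16.

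Of 35 genes of neurofilaments, tubulins and axonal transport 3 rose and 6 fell, beside 7.66% and 6.79% over all genes. The share that rose was thus close to that of all genes. Neurofilament genes did not pass: Nefl, Nefm and Nefh had differences of -0.19 ± 0.11, -0.10 ± 0.11 and -0.17 ± 0.10. Kif5a, a kinesin heavy chain, fell by 0.72 ± 0.08 (a second probe set gave -0.21) and Dync1i1, a dynein intermediate chain, fell by 0.69 ± 0.10 on the log2 scale. Mapt, the gene of tau, fell from 2734.3, 3390.5 and 3265.7 to 1905.7, 1389.3 and 1566.3 (-0.96 ± 0.13), and its other probe sets gave -0.75 and -0.37. Cntnap1, the paranodal protein Caspr, fell from 559.1 to 602.8 down to 125.7 to 188.4 (-1.91 ± 0.15), Cntnap2 fell by 1.05 ± 0.13 and Sptbn4, the nodal spectrin, by 0.87 ± 0.17. Sema6a, a guidance ligand, rose from 276.6 to 428.6 up to 918.6 to 1242.4 (1.66 ± 0.21, with 0.76 on a second probe set). In the guidance and adhesion list 3 of 54 rose, a smaller share than over all genes, and 10 fell. The fallers numbered 5 without LP sham replicate 1 and 6 without LP sham replicate 3. In this list 1 riser was left without LP sham replicate 2, LP SNL replicate 2 or LP SNL replicate 3.

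Factors that hold sensory neuron identity fell where they passed, 4 of 12 measured, and none rose (1 without LP sham replicate 2). Isl2, a LIM homeodomain factor, read 475.4, 641.2 and 575.8 after sham and 148.3, 90.2 and 119.0 after SNL (-2.25 ± 0.17, adjusted p = 7.2e-05). Drgx, a homeodomain factor of nociceptor development, fell by 1.30 ± 0.18 and Shox2, a factor of touch neurons, by 0.89 ± 0.15. Receptors of trophic factors diverged: Gfra1, the GDNF co-receptor, rose from 1110.9 to 1282.4 up to 2695.5 to 3075.5 (1.27 ± 0.10), while Gfra2, the neurturin co-receptor, fell by 0.69 ± 0.09, Ntrk3, the neurotrophin-3 receptor, by 0.72 ± 0.13 and Ngfr, the p75 receptor, by 0.76 ± 0.13.

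Neuronal marker lists were counted separately. Of 18 nociceptor markers 13 fell, 1 (Adcyap1) rose, and the median was -0.70. Acp3, the phosphatase of non-peptidergic nociceptors, read 258.8, 219.5 and 231.3 after sham and 17.6, 18.9 and 17.4 after SNL (-3.64 ± 0.25). Of 12 markers of large-diameter neurons 3 fell and 1 rose, with a median of -0.33. The riser, the matrix and cytokine gene Spp1, was lost without LP SNL replicate 1 or LP sham replicate 1. Of 12 genes that define sensory neurons at large 4 fell, none rose, and the median was -0.27. Avil, the actin-binding advillin, fell by 1.02 ± 0.10, whereas Uchl1 and Prph gave -0.07 ± 0.10 and -0.04 ± 0.12. The summed signal of the defining genes was 64879.9 to 69890.2 on the sham arrays and 54542.2 to 59640.1 on the SNL arrays, and that of the nociceptor markers 23839.6 to 25675.1 and 14370.1 to 16012.8. In bulk tissue fewer cells of a type and less RNA per cell cannot be told apart, here and in every result on a cell type.

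Macrophage genes had the largest share of risers among the lists: 17 of 24 measured rose, none fell, and the median was 1.04. Their summed signal was 12984.8 to 13707.7 after sham and 24431.2 to 28728.2 after SNL. Cd68, a lysosomal protein of phagocytes, read 103.6, 148.7 and 209.9 after sham and 643.7, 535.9 and 614.6 after SNL (2.00 ± 0.23). Gpnmb, a glycoprotein of lipid-laden macrophages, rose from 224.6, 292.5 and 290.5 to 1598.6, 1254.1 and 1714.9 (2.49 ± 0.23). Csf1r, the receptor that macrophages need to survive, rose by 0.92 ± 0.12, and Cd14, the co-receptor for endotoxin, by 1.12 ± 0.12. Aif1, which encodes IBA1, a standard stain for these cells, read 702.5, 412.9 and 411.3 after sham and 415.4, 604.9 and 582.1 after SNL and did not pass (adjusted p = 0.863).

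Complement components rose with them, 8 of 20 higher and 1 lower (2 without HP SNL replicate 2 or HP SNL replicate 3). C1qb, a chain of the first component, read 127.8, 146.2 and 188.2 after sham and 589.5, 783.3 and 809.7 after SNL (2.24 ± 0.17). C1qa and C1qc rose by 1.34 ± 0.13 and 1.42 ± 0.13, and C3, the central component, by 2.01 ± 0.20. The faller was Cd55, which shields cells from complement and is made by sensory neurons, from 1545.7, 1488.6 and 1612.1 to 501.5, 407.8 and 417.3 (-1.81 ± 0.14). C1qa, C1qb and C1qc stand in the macrophage list as well.

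Chemokine genes included the largest rises of the comparison, although 5 of 35 rose in all and none fell. Cxcl14, a chemokine of epithelia and nerve, read 245.9, 259.8 and 207.0 after sham and 3993.7, 5063.0 and 4102.6 after SNL (4.20 ± 0.39, adjusted p = 0.000155). Ccl6, a chemokine of myeloid cells in rodents, lay between 9.3 and 23.8 after sham, at the dim end of the arrays, and between 283.9 and 344.8 after SNL (4.36 ± 0.46). Ccl2, the chemokine that draws monocytes, rose by 0.77 ± 0.11, and Ackr3, a scavenging chemokine receptor, by 1.20 ± 0.20. Of 55 interleukin and tumour necrosis factor genes 7 rose and 2 fell, beside 7.66% and 6.79% over all genes. Il33, an alarmin stored in nuclei, rose from 785.8 to 880.8 up to 1752.3 to 2208.9 (1.27 ± 0.11), and Tnfrsf1a, the main receptor of tumour necrosis factor, by 1.08 ± 0.14. The classical inflammatory cytokines did not pass: Il1b had a difference of -0.14 ± 0.18, Tnf 0.23 ± 0.22 and Il6 1.47 ± 0.56 (adjusted p = 0.114). The fallers were Mif, a macrophage inhibitory cytokine, and Il7r, the interleukin 7 receptor. Neither was called without LP SNL replicate 1 or LP sham replicate 2, and 1 of them was called without any other single array except HP SNL replicate 1 and HP SNL replicate 3, where both were.

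Antigen presentation and interferon genes rose in part. Of 13 genes of class II antigen presentation 4 rose. They were RT1-DMa, RT1-DMb, Ifi30 and Ctss, the cathepsin that trims the invariant chain, the last at 1.05 ± 0.16. The class II gene RT1-Da itself read 622.0, 1357.8 and 890.1 after sham and 1507.5, 1540.9 and 1694.0 after SNL with groups that did not overlap but an adjusted p of 0.0876. Of 40 class I and interferon genes 9 rose and none fell, led by Ifitm3, an antiviral membrane protein, at 0.92 ± 0.08, and Gbp2, a guanylate-binding protein, at 1.96 ± 0.24. In the lymphocyte and granulocyte lists 1 of 23 T and NK cell genes rose (Gzmb, a granzyme, 1.68 ± 0.28), 1 of 9 neutrophil genes (Lcn2, lipocalin, 0.78 ± 0.15), and none of 17 mast cell genes. Over all genes 7.66% rose. No T and NK cell gene was called higher with the dimmest 25% of genes left out, and no neutrophil gene with the LP arrays alone. The T and NK cell sum was 3771.3 to 4282.8 after sham and 4194.5 to 4900.3 after SNL.

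**Figure D4:**
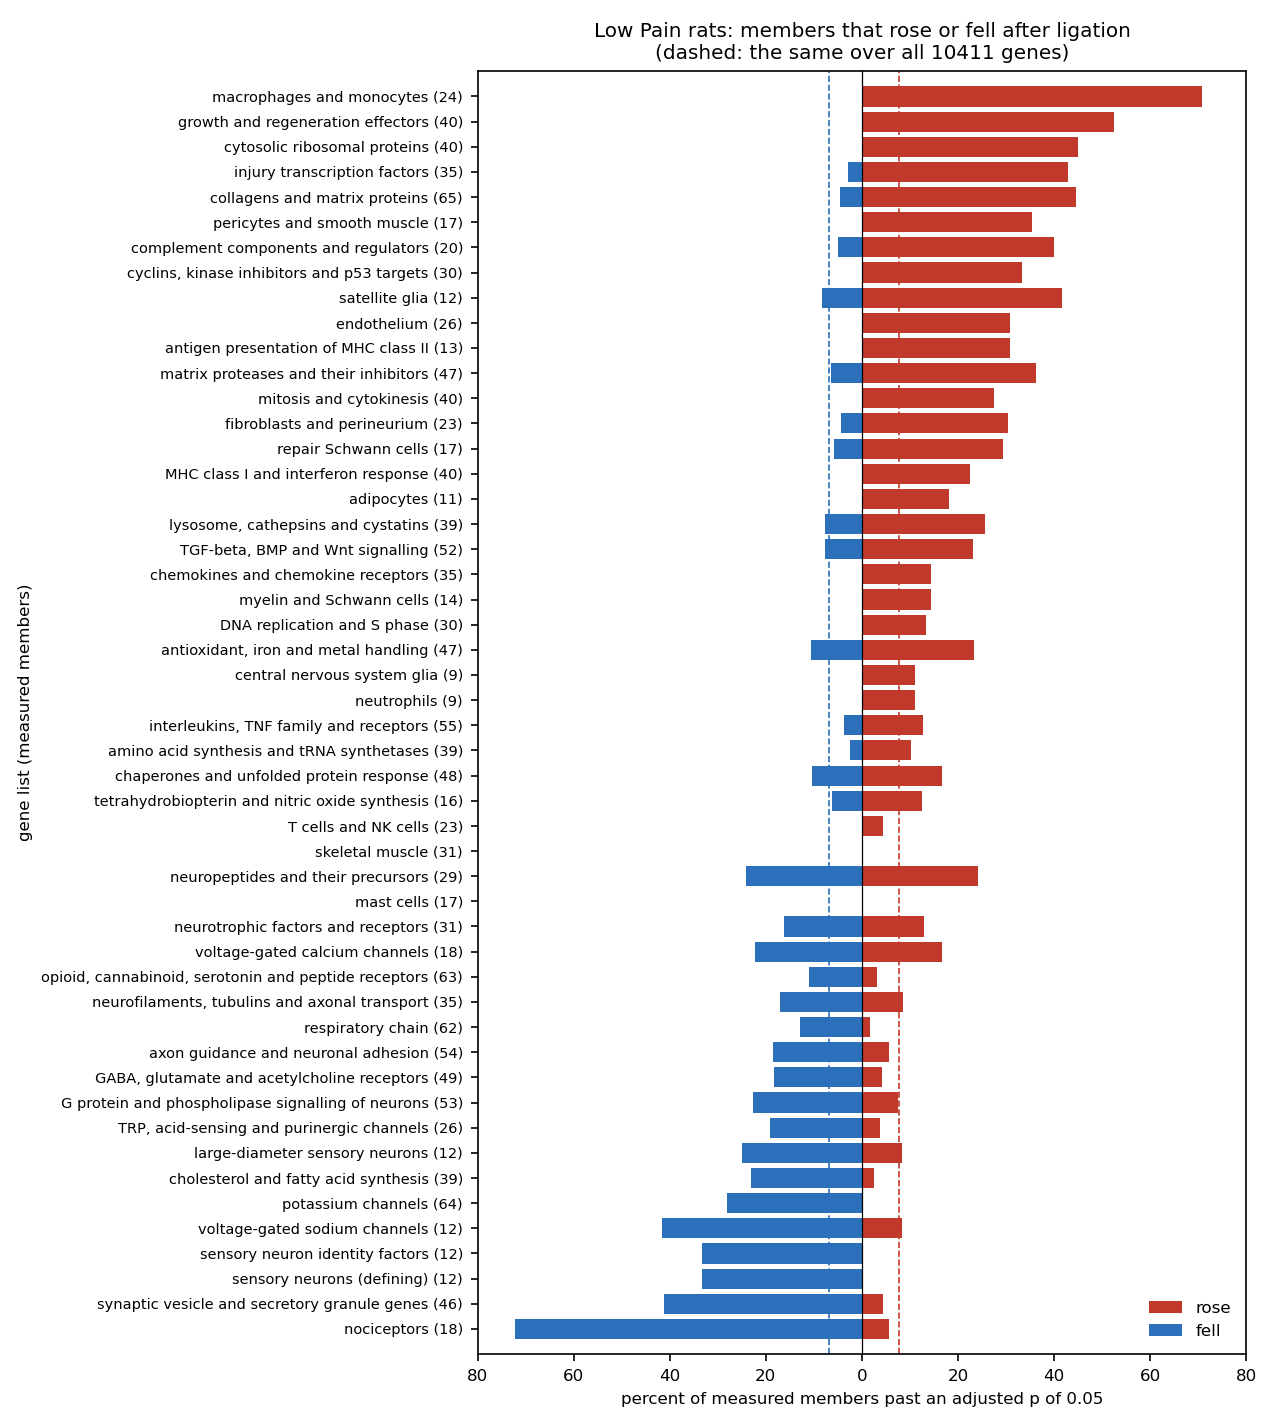
Percent of the measured members of each of 50 gene lists that rose (red, to the right) or fell (blue, to the left) in LP rats after ligation, with the number of measured members in brackets and dashed lines at 7.66% and 6.79%, the shares over all 10411 genes. Macrophages and monocytes, with 17 of 24 higher, stand at the top and nociceptors, with 13 of 18 lower, at the bottom.

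Cell cycle genes rose from a low base. Of 40 genes of mitosis and cytokinesis 11 rose, none fell, and the median was 0.47. Mki67, the proliferation antigen, read 6.0, 12.3 and 13.2 after sham and 213.1, 127.1 and 171.3 after SNL. The sham values lay below their arrays' 5th percentiles (12.4 to 20.2), and the difference was 3.93 ± 0.44 (adjusted p = 0.000351). Cks2, a subunit of the cyclin-dependent kinases, rose from 11.4, 16.2 and 13.8 to 258.0, 228.4 and 199.1 (3.96 ± 0.57). Cdk1, the mitotic kinase, read 25.2, 34.5 and 99.9 after sham and 268.8, 410.5 and 403.2 after SNL (2.97 ± 0.52). Kif20a, a kinesin of cytokinesis, rose by 3.50 ± 0.45, and Tacc3, a spindle protein, by 2.21 ± 0.31. Of 30 replication genes 4 rose: the helicase subunits Mcm6 (2.84 ± 0.48), Mcm2 (1.58 ± 0.43) and Mcm7 (0.60 ± 0.10), and the clamp Pcna (0.56 ± 0.14). The number was 2 without LP SNL replicate 3 or LP sham replicate 2, and 7 with array weights. Pcna was lost without LP SNL replicate 2 or 3 or LP sham replicate 1 or 2, and Mcm2 in those cases and without LP SNL replicate 1 or HP sham replicate 1, under the replicate block (limma adjusted p = 0.0564) and with the LP arrays alone (0.14). Leaving out the dimmest 25% of genes over the 12 arrays left 5 of the mitosis genes called, and leaving out the dimmest 50% left 1. Cdkn1a, the p21 inhibitor of the cycle, rose as well (1.15 ± 0.20), as did Ccnd1, cyclin D1 (0.53 ± 0.10, with 1.07 and 1.51 on its other probe sets).

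Promoters of these genes are known to carry the cell cycle homology region (CHR) and E2F sites. The 150 bases before the gene's start (RefSeq, GRCr8, 5′ to 3′ on the gene's strand) are shown for risers that hold them, to let the spacing be compared, with matches in capitals: TTTGAA or TTCGAA for the CHR, and TTTCCCGC, TTTGGCGC or TTTCGCGC for E2F, each on either strand. Mki67 lies at chr1:199952594-199952743 (minus), Cks2 at chr17:13727520-13727669 (minus), Cdk1 at chr20:19265143-19265292 (plus), Tacc3 at chr14:81289699-81289848 (minus), Mcm6 at chr13:42404353-42404502 (minus), Mcm2 at chr4:122918095-122918244 (minus) and Mcm7 at chr12:22163179-22163328 (minus).
Mki67: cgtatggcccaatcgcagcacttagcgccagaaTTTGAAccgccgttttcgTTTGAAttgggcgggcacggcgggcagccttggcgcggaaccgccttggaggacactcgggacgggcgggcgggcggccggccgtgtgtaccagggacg
Cks2: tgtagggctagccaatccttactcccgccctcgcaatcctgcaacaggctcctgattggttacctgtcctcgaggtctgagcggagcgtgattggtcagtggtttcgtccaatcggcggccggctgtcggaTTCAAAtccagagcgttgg
Cdk1: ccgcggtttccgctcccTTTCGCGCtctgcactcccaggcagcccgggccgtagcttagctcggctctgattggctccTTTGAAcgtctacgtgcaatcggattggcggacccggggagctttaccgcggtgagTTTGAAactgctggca
Tacc3: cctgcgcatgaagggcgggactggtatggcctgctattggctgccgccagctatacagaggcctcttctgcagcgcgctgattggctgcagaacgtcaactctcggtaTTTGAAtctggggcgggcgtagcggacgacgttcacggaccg
Mcm6: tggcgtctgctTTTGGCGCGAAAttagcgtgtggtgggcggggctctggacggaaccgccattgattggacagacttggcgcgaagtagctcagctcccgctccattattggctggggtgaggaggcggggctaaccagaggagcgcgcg
Mcm2: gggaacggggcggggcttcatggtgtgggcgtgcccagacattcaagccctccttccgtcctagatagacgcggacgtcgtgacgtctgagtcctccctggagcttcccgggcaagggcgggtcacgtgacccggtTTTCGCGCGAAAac
Mcm7: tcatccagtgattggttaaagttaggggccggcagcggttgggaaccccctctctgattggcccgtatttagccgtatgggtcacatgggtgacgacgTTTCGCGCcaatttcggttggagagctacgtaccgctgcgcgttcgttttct
The CHR lay at -117 and -99 from the start in Mki67, at -72 and -16 in Cdk1, at -42 in Tacc3 and, on the opposite strand, at -19 in Cks2. E2F matches on both strands overlapped in Mcm6 (-139 and -135) and in Mcm2 (-14 and -10). Over the whole window from 250 bases before to 50 after the start, the CHR was in 9 of 11 mitosis genes that rose (81.8%), in 17 of 25 that were not called (68%) and in 5359 of 27457 promoters (19.5%). An E2F match was in 3 of 4 replication genes that rose (75%), in 9 of 23 not called (39.1%) and in 501 of all promoters (1.82%). These are counts of letters, with no test, and the motifs were chosen for these lists.

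Extracellular matrix genes rose broadly: 29 of 65 measured were higher, 3 lower, and the median was 0.50. Col18a1, a basement membrane collagen and source of endostatin, read 383.3, 477.3 and 411.4 after sham and 1815.4, 2152.0 and 1731.0 after SNL (2.16 ± 0.13, adjusted p = 2.3e-05). Fibronectin (Fn1), a matrix protein laid down in wounds, read 1605.3, 1676.1 and 1457.2 after sham and 4553.0, 2993.2 and 4480.6 after SNL, with SNL replicate 2 below the others (1.32 ± 0.18). Tenascin C (Tnc), also of wound matrix, rose by 1.61 ± 0.19. Fbn1, the microfibril protein fibrillin, rose by 1.10 ± 0.14 and Lum, the fibril-spacing lumican, by 0.94 ± 0.15. Postn, a matricellular protein, lay between 9.5 and 19.2 after sham and at 342.3, 158.5 and 168.2 after SNL (3.72 ± 0.74). Col1a1, the chain of type I collagen, read 4190.1, 4445.0 and 3754.3 after sham and 6753.2, 4188.8 and 6954.5 after SNL, and the groups overlapped (adjusted p = 0.0973). The fallers were Fbln2 (-0.69 ± 0.13), Sparcl1 (-0.43 ± 0.09) and Bcan (-0.83 ± 0.19), and the last was lost without LP SNL replicate 1 or 3 or LP sham replicate 1 or 2. A second probe set of Bcan gave -0.13 ± 0.34, and its call was also lost with the mean of its probe sets (-0.48, limma adjusted p = 0.164).

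Several protease inhibitors rose and others fell. Serpina3n, a secreted inhibitor of serine proteases such as leukocyte elastase, and named in the study's title, read 382.0, 246.6 and 249.0 after sham and 1753.8, 1967.4 and 1560.1 after SNL. No SNL array came near a sham array, and the difference was 2.61 ± 0.20 (adjusted p = 7.2e-05). Alpha-2-macroglobulin (A2m), which traps proteases of many classes, read 551.8, 635.4 and 354.8 after sham and 3991.4, 2808.5 and 3484.8 after SNL (2.76 ± 0.22). Timp1, the tissue inhibitor of metalloproteinases, rose from 1192.8 to 1644.1 up to 4590.7 to 5485.8 (1.73 ± 0.16). Proteases rose too, Adamts1 by 1.70 ± 0.18, Mmp16 by 1.26 ± 0.12 and Mmp2 by 1.11 ± 0.11, although a second probe set of Mmp2 gave -0.31 ± 0.27. In this list 17 of 47 rose and 3 fell. The fallers were the intracellular serpins Serpinb9 (-0.56 ± 0.09) and Serpinb6a (-0.49 ± 0.12) and Adam22 (-0.91 ± 0.10), a neuronal ADAM protein without protease activity. Serpinb6a was lost without LP SNL replicate 2 or 3 or LP sham replicate 1 or 2, a second probe set of Adam22 gave 0.17, and without LP SNL replicate 3 the risers numbered 11. Elane, the elastase also named in the title, had no probe set annotated to it alone and was not analysed here. Tgfb1, the cytokine that drives matrix deposition, lay between 11.8 and 31.9 after sham and 162.0 and 251.4 after SNL (3.19 ± 0.41), and Ltbp1, which stores it in the matrix, rose by 1.72 ± 0.23.

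Markers of fibroblasts and vessel cells were counted beside the matrix genes. The fibroblast and perineurium list had 7 of 23 higher and 1 (Thy1, lost without LP SNL replicate 3) lower, with a summed signal of 31800.4 to 34845.9 after sham and of 43417.8, 34635.7 and 45837.0 after SNL, so that SNL replicate 2 lay within the sham range. Pdgfra, a receptor for platelet-derived growth factor, rose by 1.04 ± 0.20. Cd248, a stromal glycoprotein, rose by 3.65 ± 0.47 on its brighter probe set, while the other gave 0.00 ± 0.15. Of 26 endothelial genes 8 rose, Tie1 by 0.64 ± 0.11 and Esam by 0.70 ± 0.15. The endothelial number fell to 3 without LP SNL replicate 1, LP SNL replicate 3 or LP sham replicate 1, to 5 without LP SNL replicate 2 and to 4 without LP sham replicate 2. Of 17 pericyte and smooth muscle genes 6 rose, led by Rgs5 (1.24 ± 0.19), and the number was 2 without LP SNL replicate 3 and 3 without LP sham replicate 2 or HP sham replicate 1. The summed signal was 6649.0 to 7226.1 after sham and 9080.2 to 9452.1 after SNL for the endothelial list, and 7613.1 to 8172.6 and 9562.5 to 9981.1 for the pericyte list. The part of these cell types in the matrix result was not tested.

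Satellite glia and myelin lists were small. Gfap, the intermediate filament that satellite glia make after injury, read 818.9, 745.9 and 693.8 after sham and 2323.3, 2199.7 and 2049.0 after SNL (1.54 ± 0.09, adjusted p = 2.2e-05, the smallest of any riser). Entpd2, an ecto-ATPase of satellite glia, rose by 0.91 ± 0.13 and Gja1, connexin 43, by 0.61 ± 0.11, though its other probe sets gave -0.34 and 0.69. Cadm1, an adhesion molecule kept in this list, fell from 2628.0, 2748.6 and 2463.8 to 1189.6, 1031.5 and 1192.4 (-1.20 ± 0.10). In all 5 of 12 satellite genes rose and 1 fell, and 3 rose without LP SNL replicate 1 or LP SNL replicate 3. Of 14 myelin genes 2 rose and none fell: Cnp at 0.53 ± 0.10, and Sox10, whose call was lost without any single LP array other than LP SNL replicate 2. Mbp, myelin basic protein, did not pass (-0.17 ± 0.12). The summed myelin signal was 39875.3 to 44166.1 after sham and 40491.9 to 41806.1 after SNL. Of 17 genes of repair Schwann cells 5 rose (Jun, Shh, Tnc, Ccl2 and Gap43, all given above) and Ngfr fell. Each of these genes was also counted in another list above, so they are no separate sign of these cells.

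Ribosomal protein genes rose in a number that depended on single arrays. Of 40 cytosolic ribosomal protein genes 18 rose, none fell, and the median was 0.38. Rpl18 rose by 0.60 ± 0.11 and Rpsa by 0.70 ± 0.13, and the summed signal of the list was 129435.3 to 150191.8 after sham and 172076.8 to 193809.7 after SNL. The number fell to 4 without LP SNL replicate 1 or LP SNL replicate 3, to 6 without LP sham replicate 1, to 11 without LP sham replicate 3, HP SNL replicate 1 or HP SNL replicate 2, and to 10 without HP sham replicate 3. It was 6 when each array was centred on its median, where the median difference of all genes was -0.03, and 11 with the actin ratio as a covariate. It was 9 under the replicate block, 4 with the LP arrays alone and 28 with the dimmest 50% of genes left out.

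Metabolic genes mostly fell where they passed. Of 62 respiratory chain genes 8 fell and 1 rose, with a median of -0.22, beside 6.79% and 7.66% over all genes. Ndufs1, a subunit of complex I, fell from 1352.5, 1340.0 and 1460.8 to 809.5, 955.5 and 780.6 (-0.71 ± 0.11). The riser, Cox7a1, lost its call when any single array other than HP SNL replicate 1 or 3 was left out. The fallers numbered 5 without LP SNL replicate 1 or LP sham replicate 1, 4 without LP SNL replicate 3 and 3 without LP sham replicate 2. They numbered 14 with a trended and robust variance, 13 with the dimmest 50% of genes left out and 2 with the LP arrays alone. Of 39 genes of cholesterol and fatty acid synthesis 9 fell and 1 rose, and the fallers numbered 15 with a trended and robust variance, 14 with the dimmest 50% of genes left out and 5 with the LP arrays alone. Acsl6, a neuronal acyl-CoA synthetase, fell from 541.6, 541.7 and 580.8 to 165.4, 197.8 and 188.8 (-1.59 ± 0.12), while its relative Acsl4, which favours arachidonic acid, rose by 0.90 ± 0.13. The sterol enzymes Sqle and Fdft1 fell by 0.61 ± 0.11 and 0.60 ± 0.13, and a second probe set of Fdft1 gave -0.33. Gch1, which makes the cofactor tetrahydrobiopterin and is tied to pain sensitivity, read 121.8, 172.5 and 55.6 after sham and 398.7, 449.2 and 515.8 after SNL (2.09 ± 0.48). Its call was lost without LP SNL replicate 3 (adjusted p = 0.0595), and a second probe set gave 0.69 ± 0.44.

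Iron and oxidative stress genes moved both ways, 11 of 47 higher and 5 lower, beside 7.66% and 6.79% over all genes. Hamp, the iron-regulating hormone hepcidin, rose from 240.7, 376.3 and 257.6 to 1016.8, 1081.1 and 1005.7 (1.85 ± 0.16). Ceruloplasmin (Cp), a copper ferroxidase, rose by 1.21 ± 0.20 (1.14 and 1.90 on its other probe sets), and Gpx1, a peroxidase, by 1.04 ± 0.14. Mt3, the metallothionein of neurons, fell from 3919.5 to 5092.9 down to 2424.0 to 3065.2 (-0.74 ± 0.12). The fallers numbered 2 without LP SNL replicate 1, LP SNL replicate 3 or LP sham replicate 2.

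The remaining lists are given by their counts, beside 7.66% of all genes higher and 6.79% lower. Small counts, such as those of the amino acid genes, are close to or below these shares. Of 31 neurotrophic factors and receptors 4 rose (2 without LP SNL replicate 2) and 5 fell. Of 30 cyclins, kinase inhibitors and p53 targets 10 rose and none fell. Lysosomal genes divided into 10 risers and 3 fallers of 39, with 6 risers without LP SNL replicate 3 and 1 faller without LP SNL replicate 1 or 3, LP sham replicate 1 or 3, or HP sham replicate 1. Cd63, a membrane protein of lysosomes, rose by 1.01 and Grn, progranulin, by 0.80. In the TGF-beta, BMP and Wnt list 12 of 52 rose and 4 fell. Chaperone genes had 8 risers and 5 fallers of 48, which were 5 and 3 without LP SNL replicate 3, and 3 fell without LP sham replicate 2. Hspb1, a small heat shock protein of injured neurons, rose by 0.91 ± 0.14. Amino acid genes had 4 risers and 1 faller of 39, with 2 risers without LP SNL replicate 1 or 3 and 1 without LP sham replicate 1, no faller without LP SNL replicate 1 or LP sham replicate 1 or 2, and 2 fallers without LP sham replicate 3. Of 16 tetrahydrobiopterin and nitric oxide genes 2 rose (1 without LP SNL replicate 3) and 1 fell. The adipocyte list had 2 of 11 higher, the central glia list 1 of 9 (Gfap), and the B cell list 1 of 2 lower, a call lost without LP SNL replicate 1 or 3 or LP sham replicate 1 or 3.

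The response of LP rats was set beside that of HP rats, whose arrays are separate from theirs. In HP rats 731 genes rose (7.02%) and 688 fell (6.61%). The same direction was called in both lines for 998 genes, 66.4% of the LP calls and 70.3% of the HP calls, and the opposite direction for 1 gene. Of the 1504 genes called in LP rats 1474 had the same sign in HP rats. In size 1123 of them were larger in LP rats, and of the 1419 genes called in HP rats 800 were larger in HP rats. Each count was taken on genes chosen in that line, and neither was tested. The actin ratio was 1.483 to 1.847 on the HP sham arrays and 1.118 to 1.342 on the HP SNL arrays, and a fit with it as a covariate is given next. The test of the difference in response called no gene by limma (0%), with a smallest adjusted p of 0.189 and 490 genes at an unadjusted p under 0.05 (4.71%). It called 2 without HP SNL replicate 2, 1 without HP SNL replicate 3, 2 without HP sham replicate 3 and 1 with the actin ratio as a covariate.

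The gene called in opposite directions was C8h11orf65, an open reading frame with no settled role, which rose in LP rats (1.31 ± 0.34) and fell in HP rats (-2.17 ± 0.34). Its LP arrays read 30.4, 60.5 and 75.9 after sham and 98.5, 140.2 and 160.2 after SNL, and its LP call was lost without LP SNL replicate 2, LP SNL replicate 3 or LP sham replicate 1. A second probe set of C8h11orf65 had the opposite sign in LP rats (-0.60 ± 0.76), and with the mean of its probe sets the LP difference was 0.35 (limma adjusted p = 0.708). Next by p for the difference in response stood Ptf1a, a factor of inhibitory neurons (0.82 ± 0.29 in LP, not called, and -2.05 ± 0.29 in HP). Hba-a3, Lad1, Ttc38, Cds2, Clk4, Hhex, Scn10a and Rrs1 followed in that order, none past the test. Among the nociceptor channels, Scn10a fell by 1.86 ± 0.08 in LP rats and by 1.30 ± 0.08 in HP rats (adjusted p of the difference = 0.745), and Scn11a fell by 3.08 ± 0.21 and by 1.74 ± 0.21 (0.745). For Cdk1 the LP difference of 2.97 ± 0.52 stood beside 0.99 ± 0.52 in HP rats, and for Cks2 3.96 ± 0.57 stood beside 1.63 ± 0.57, neither past the test of the difference (0.988 for both). Serpina3n rose by 2.61 ± 0.20 in LP rats and by 1.88 ± 0.20 in HP rats (0.988). Scn11a, Cdk1, Cks2 and Serpina3n were named for their LP changes, so their larger LP size is no evidence of a difference. List medians went both ways. The nociceptor median was -0.70 in LP and -0.51 in HP rats, and the sodium channel median -0.51 and -0.80.

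**Figure D5:**
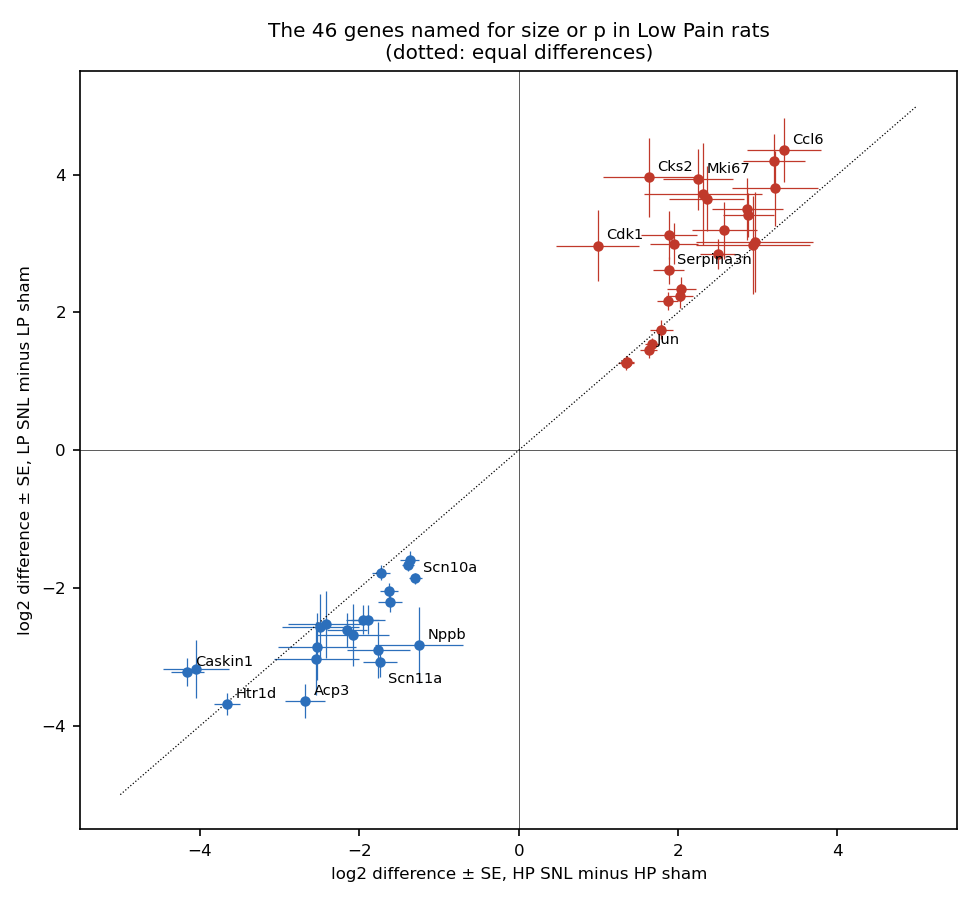
Log2 difference with its SE in LP rats (vertical) against that in HP rats (horizontal) for the 46 genes named in LP rats for the size or the p of their change, with a dotted line where the lines would be equal. The genes were chosen for LP values, so a lean away from the dotted line is no evidence of a difference. Cdk1 had the smallest HP difference among the LP risers, 0.99, and Htr1d lay on the dotted line at -3.66 and -3.69.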

How the data were processed

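Total RNA of L4/L5 ganglia was hybridised to Affymetrix arrays. The authors deposited 1 linear intensity per probe set and array, and RMA is the only tool in the submitters' processing notes, without a version. A mean of 500.1 on every array after trimming 2% from each end of the values points to global scaling, and which steps were run is not settled here. Of 191076 values 109 were below 1, so log2(intensity + 1) was tested, with no further normalization. Symbols came from the platform annotation and RefSeq (GRCr8), and each of 10411 genes was read from its brightest probe set by the mean of 12 arrays (1868 genes had several). The number of arrays limits the precision.

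One limma fit (3.58.1, R 4.3.3) of 4 group means, with 8 residual and 2.05 prior degrees of freedom, gave two-sided tests of SNL against sham in LP and HP rats and of their difference, with Benjamini-Hochberg adjustment over all genes and a threshold of 0.05. On simulated data the LP comparison recovered 25.4% of 1.5-fold, 68.7% of 2-fold and 89.4% of 4-fold changes. A gene that did not pass may therefore still have changed. In the simulation 67, 67 and 66 of 10411 genes were changed by these folds, a smaller share than was called in the data. Its noise was normal and independent between genes, so the rates may differ in the real comparison. The comparison and the 52 lists (1494 of 1875 listed genes measured) were chosen with earlier results of these data known. Named genes were the 15 largest and the 10 smallest-p changes in each direction, and the 10 smallest p of the difference in response. Up to 6 members of a list in each direction by p were added, with any that went against the list. Members that did not pass were named where a list is described, and Serpina3n was named from the series title. Alternatives were 2 pseudocounts, other normalizations, variance models, filters and probe set rules, the LP arrays alone, the actin ratio as a covariate, a replicate block and leaving out each array. Promoter windows were read from RefSeq for 8631 of the genes tested.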

Additional observations from a re-analysis of the deposited data

How the results depend on the processing

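Of the 300 named genes that were called in LP rats, 193 were called under every alternative that tested them, and none changed sign. A gene removed by a filter on dim genes was not judged under that filter. Most of the 300 were named for a small p or a large change, so this share does not describe the 1504 calls. The count of LP calls, 1504, was 814 with the LP arrays alone, which leaves fewer arrays to estimate the spread, and 774 of these were among the 1504. Leaving out each array in turn gave between 1028 and 1451 calls. The other settings gave 1251 to 1778. Higher and lower calls numbered 797 and 707, and with median centring 654 and 835. The difference in response between LP and HP rats had 0 calls by limma, 1 when the actin ratio was a covariate, and between 0 and 2 when single arrays were left out; the cause was not tested. With the replicate number as a replicate block, 1251 genes were called in LP rats and 0 for the difference in response. Deviations of LP sham and LP SNL arrays with the same number correlated across genes at 0.035, -0.102 and 0.098. The labels do not say whether such arrays share a day or a batch, and these correlations cannot settle it. List counts moved as well. With the LP arrays alone the risers numbered 17 for collagens and matrix proteins, 11 for matrix proteases and inhibitors, 7 for TGF-beta, BMP and Wnt genes, 5 for antioxidant and for lysosomal genes, 4 for fibroblasts, 2 for chaperones and 1 for pericytes, and the fallers 12 for synaptic genes, 3 for sensory channels, and 2 for calcium channels and for the defining genes of sensory neurons. With the dimmest 50% of genes left out the fallers numbered 11 for potassium channels, 3 for GABA, glutamate and acetylcholine receptors, 2 for the other receptors and 1 for identity factors, and the risers 7 for TGF-beta genes, 4 for interleukins and 2 for chemokines and for endothelium, with fewer members tested. A trended and robust variance gave 10 cytoskeletal fallers. Counts of 0 or 1 could change by 1 when an array was left out. Dim genes are the least certain, since log2 values near the arrays' 5th percentile of 12.4 to 20.8 vary most.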
